A study of Mus musculus with 13 samples.

Results

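The transcripts of 42 mouse genes that handle zinc, iron and copper were compared between tip, stalk and nonvascular samples of the retina. The 42 genes were chosen by symbol. They are the carriers of the Slc39, Slc30, Slc11, Slc31 and Slc40 families, the Steap metalloreductases, the metallothioneins Mt1 to Mt4, transferrin and its receptor, the ferritin chains Fth1 and Ftl1, the ferroxidases Cp and Heph, the heme oxygenases Hmox1 and Hmox2 and the copper pumps Atp7a and Atp7b. They were carried by 54 of the 41174 probes on the array, and all 42 passed the filter on dim probes, as did 31896 of 33413 genes in all. Family members outside these 42, such as Slc30a2, Slc30a10, Slc39a2, Slc39a9 and Steap2, were not analysed here.

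Metals reach a cell through carriers and leave it through others, and between these steps they are bound so that little free metal is present. Slc39 (ZIP) proteins bring zinc into the cytosol, Slc30 (ZnT) proteins move it out of the cytosol, and metallothioneins bind zinc and copper. Iron enters bound to transferrin, is reduced and carried into the cytosol by Steap proteins and Slc11a2, is stored in ferritin and leaves through ferroportin (Slc40a1), after which the ferroxidases Cp and Heph oxidise it. Copper enters through Slc31a1 and is pumped by Atp7a and Atp7b. In the retina the endothelium of the inner vessels forms a barrier, so metals from the blood have to cross these cells to reach the neurons.

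At the front of a growing retinal vessel, tip cells migrate outward and stalk cells behind them form its trunk. By their labels 6 samples were tip, 4 were stalk and 3 were a nonvascular retina control. Each was hybridised in Cy5 on an array of its own against one commercial mouse reference RNA in Cy3, and no dyes were swapped. No strain, age, genotype or treatment is given in the labels used here, nor how the cells were collected, and samples are not tied to animals, so p-values measure only the spread between these samples, which may be technical.

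Values are log2 ratios of sample over reference, called levels below, and a difference is between 2 group means of that log2 ratio with its standard error (SE) from limma. A positive difference means higher in the group named first. Genes with a Benjamini-Hochberg adjusted p under 0.05 over all genes are said to have risen, fallen or been called. A level says how a probe stood against the reference RNA, so levels of different genes are not compared.

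The labels were checked against cell markers. The mean level of 10 endothelial markers was 2.53 to 2.87 on tip arrays, 2.91 to 3.09 on stalk arrays and 0.45 to 0.74 on nonvascular arrays, where all 10 were still well above background. Of these 10, 2 fell in tip relative to stalk. Markers of pericytes and smooth muscle (9 genes) averaged 1.32 to 1.71 on tip arrays, 2.12 to 2.31 on stalk arrays and −0.57 to −0.39 on nonvascular arrays, and 7 of the 9 fell in tip relative to stalk. Ganglion cell markers averaged 0.44 to 0.83, −0.38 to 0.70 and 2.27 to 2.61 on tip, stalk and nonvascular arrays. Nonvascular replicate 3 stood apart from the other nonvascular arrays in astrocyte markers (1.33, against 0.12 and 0.27). The same held for Mueller glia markers (2.01, against 0.92 and 0.48). Every tip and stalk array was higher still, at 1.49 to 1.81 for astrocytes and 2.27 to 2.63 for Mueller glia. Relative to nonvascular retina 6 of 7 Mueller and 3 of 6 astrocyte markers rose in tip, and 5 and 2 in stalk. The part of these glial markers in the differences of tip and stalk from nonvascular retina was not tested. Each endothelial, pericyte, astrocyte, Mueller and ganglion marker was well above background on at least 1 array of every group. In bulk samples like these, fewer cells of a type and less RNA per cell cannot be told apart. Arrays were scanned group after group, and the effects of scanning and of group cannot be told apart. Array medians of red signal over background were 105 to 292 in tip, 98.1 to 141 in stalk and 166 to 282 in nonvascular retina.

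Between tip and stalk, 5 of the 42 genes were called, or 11.9%, where 2.78% of all genes were called. Of the 31896 genes tested only 16595 had a symbol, as all 42 do, and the rest were counted by their array identifiers. Shares over all genes, here and below, are therefore not like for like with those of the 42. Slc39a13, Slc39a14 and Mt2 rose in tip, and Slc39a8 and Slc40a1 fell. The share of all genes called higher was 1.46% and that called lower 1.32%. Without adjustment 15 of the 42 genes had a p under 0.05, and 18% of all genes did. The arrays of tip and stalk did not overlap for 6 of the 42 genes and for 5.47% of all genes. The median difference was 0.07 over the 42 genes and 0 over all genes. Without tip replicate 6, 4 of the 42 genes rose and 2 fell, and 1594 genes in all were called in place of 887.

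Against nonvascular retina more genes differed. In tip 16 of the 42 rose and 4 fell, together 47.6%, where 28% of all genes were called, 11.2% higher and 16.8% lower. In stalk 12 rose and 7 fell, together 45.2%, where 29.9% of all genes were called, 11.3% higher and 18.6% lower. Both comparisons share the 3 nonvascular arrays. The arrays of tip and nonvascular retina did not overlap for 20 of the 42 genes and for 27.8% of all genes, and those of stalk and nonvascular retina for 20 and for 37.3%. Without nonvascular replicate 3, 16 rose and 6 fell in tip and 12 rose and 8 fell in stalk. With median centring in place of loess, 10 rose and 6 fell in tip.

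**Figure D1:**
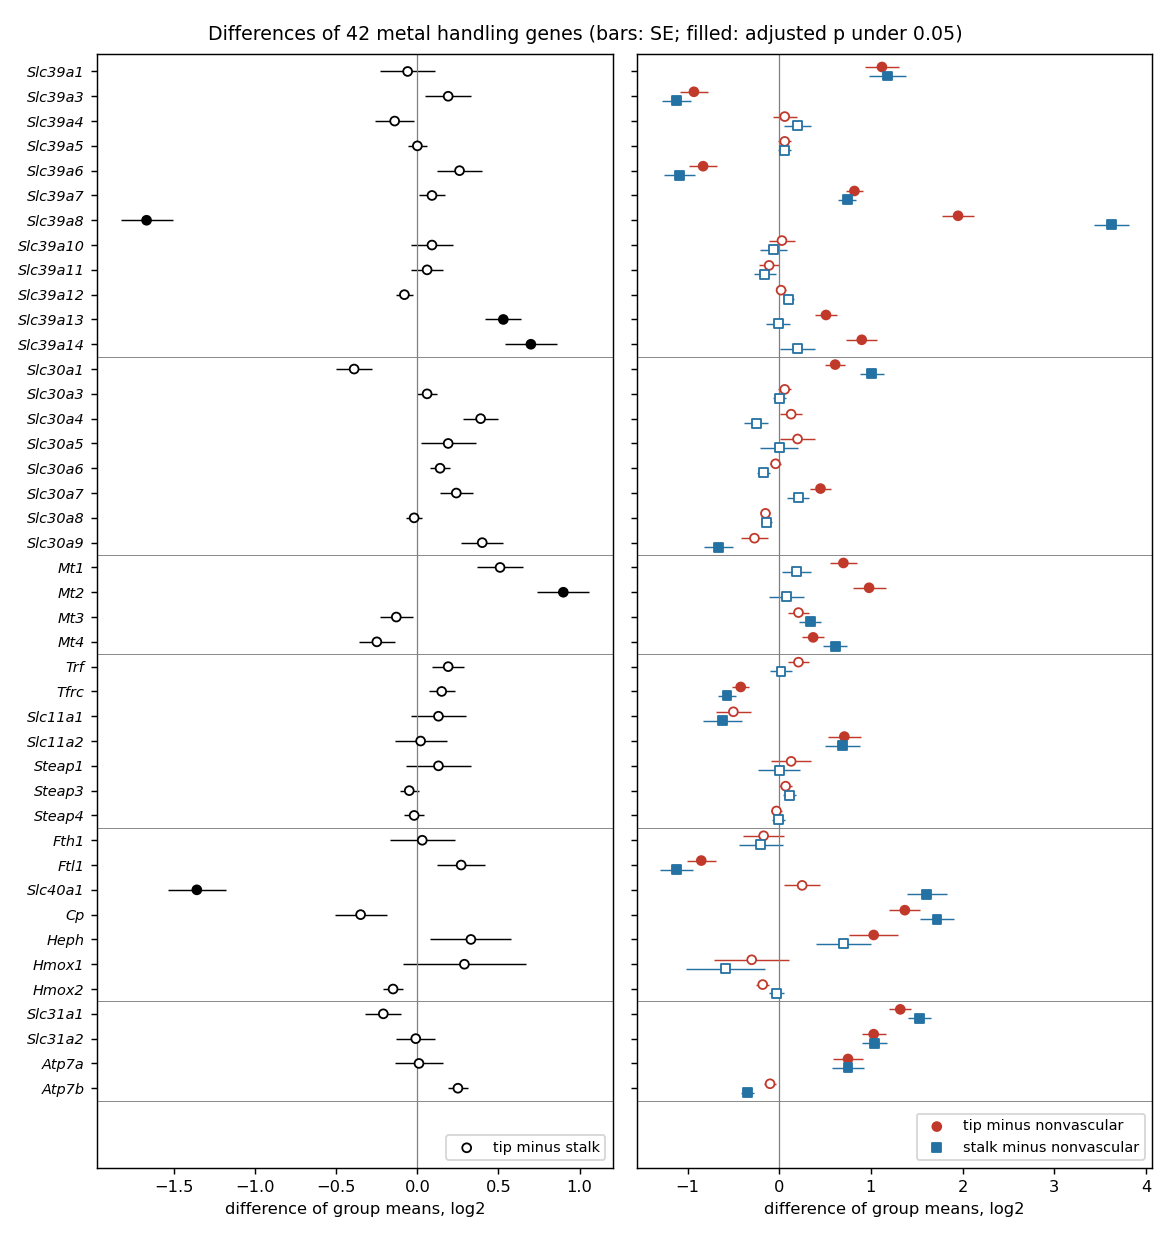
Differences of group mean log2 ratios for the 42 genes (rows, grouped by role), tip minus stalk on the left and tip or stalk minus nonvascular retina on the right. Points are differences, bars are SEs from limma and filled points have an adjusted p under 0.05. On the left, Slc39a8 (−1.67) and Slc40a1 (−1.36) stand far to the left of 0 and the other genes lie between −0.39 and 0.90.

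Of the 12 Slc39 zinc importers, 2 rose and 1 fell in tip relative to stalk and 9 were not called. Slc39a8 encodes ZIP8, a carrier at the cell surface that takes up zinc and manganese and can also carry iron. Its level on tip arrays ran from 0.92 through a median of 1.44 to 1.70, it was 2.90, 2.95, 3.18 and 3.23 on the stalk arrays, and it was −0.95, −0.22 and −0.51 on the nonvascular arrays. The 3 groups did not overlap, with stalk highest, tip between and nonvascular retina lowest. Slc39a8 fell by 1.67 ± 0.16 in tip relative to stalk (SE, adjusted p = 0.000139), a 3.19-fold difference. It exceeded nonvascular retina by 1.95 ± 0.17 in tip (adjusted p = 2.37e-06) and by 3.62 ± 0.19 in stalk (adjusted p = 2.78e-08, 12.3-fold). All 3 calls were kept under all 25 alternative settings, with tip minus stalk between −1.96 and −0.84. The smaller value came from averaging in a second, dimmer probe of Slc39a8, which differed by 0.00 between tip and stalk but was well above background on only 2 of 6 tip, 0 of 4 stalk and 0 of 3 nonvascular arrays. The mean levels of pericyte and of endothelial markers were likewise lowest in nonvascular retina and lower in tip than in stalk. The part of these markers in the Slc39a8 differences was not tested.

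Slc39a14 encodes ZIP14, the closest relative of ZIP8, which carries zinc, manganese and iron. It lay at −0.43, 0.25 and 0.40 (lowest, median, highest) on tip arrays, at −0.59, −0.54, −0.73 and −0.24 on stalk arrays and at −0.95, −0.75 and −0.47 on nonvascular arrays. Only tip replicate 6, at −0.43, overlapped with stalk, since the other 5 tip arrays lay at 0.21 or above. Slc39a14 rose by 0.70 ± 0.16 in tip relative to stalk (adjusted p = 0.0363, 1.62-fold) and by 0.90 ± 0.17 relative to nonvascular retina (adjusted p = 0.00146). Stalk minus nonvascular was 0.20 ± 0.19, with no call. The call between tip and stalk was lost in 12 of 25 settings, among them median centring (adjusted p = 0.174), the red channel alone (0.129) and array brightness as a covariate (0.308). A dimmer Slc39a14 probe differed by 0.09 between tip and stalk and by 0.11 between tip and nonvascular retina. ZIP8 and ZIP14, both able to carry iron and manganese as well as zinc, thus had differences of opposite sign between tip and stalk.

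Slc39a13 encodes ZIP13, an intracellular zinc carrier needed for connective tissue. Its tip arrays ran from −0.05 through 0.10 to 0.25, its stalk arrays were at −0.36, −0.24, −0.83 and −0.28, and its nonvascular arrays were at −0.40, −0.32 and −0.52. Every tip array lay above every stalk and nonvascular array, and stalk and nonvascular arrays overlapped. Slc39a13 rose in tip by 0.53 ± 0.11 relative to stalk (adjusted p = 0.0288) and by 0.51 ± 0.12 relative to nonvascular retina (adjusted p = 0.00671). The first of these calls was lost in 8 of 25 settings, including median centring (adjusted p = 0.251), the red channel alone (0.125), brightness as a covariate (0.26) and, without 1 array, tip replicate 1, 2 or 3 or stalk replicate 1 (0.0562 to 0.0658). The second was lost with median centring (0.32, adjusted p = 0.292). Its dimmer probe gave 0.12 against stalk and −0.01 against nonvascular retina.

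**Figure D2:**
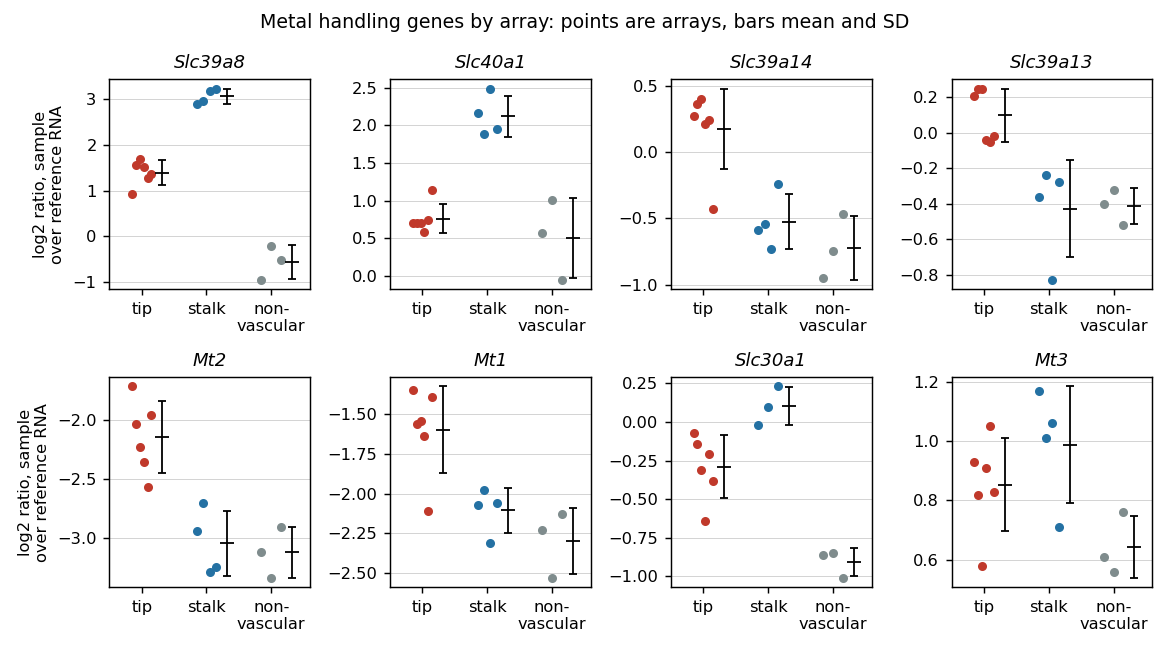
Log2 ratio of sample over reference RNA (vertical axis, scaled per gene) on each tip (n = 6), stalk (n = 4) and nonvascular (n = 3) array for 8 genes. Points are arrays, and bars are group means with the SD. Stalk arrays are highest for Slc39a8 and Slc40a1, and tip arrays are highest for Mt2, apart from the other groups at −2.57 to −1.72.

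A further 4 Slc39 genes separated both vascular groups from nonvascular retina, and none of them was called between tip and stalk. Slc39a1, a zinc importer at the cell surface, lay at 0.26, 0.55 and 0.73 (lowest, median, highest) on tip arrays and at 0.46, 0.64, 0.50 and 0.82 on stalk arrays, against −0.92, −0.87 and 0.08 on nonvascular arrays. Both vascular groups lay above all nonvascular arrays, of which replicate 3 was closest to them. Slc39a1 rose by 1.12 ± 0.19 in tip (adjusted p = 0.000528) and by 1.18 ± 0.20 in stalk (adjusted p = 0.000615).

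Slc39a7 encodes ZIP7, which releases zinc from the endoplasmic reticulum. Its levels were 0.27, 0.43 and 0.51 (lowest, median, highest) in tip and 0.16, 0.48, 0.25 and 0.37 in stalk, against −0.60, −0.43 and −0.24 in nonvascular retina. The vascular arrays again lay above all nonvascular arrays, by 0.82 ± 0.09 in tip (adjusted p = 1.62e-05) and by 0.74 ± 0.10 in stalk (adjusted p = 7.45e-05).

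Slc39a3 and Slc39a6 went the other way. Slc39a3, a cell surface importer closely related to Slc39a1, stood at −0.48, −0.32 and 0.19 (lowest, median, highest) in tip and at −0.46, −0.16, −0.65 and −0.55 in stalk, against 0.84, 0.72 and 0.44 in nonvascular retina. It fell by 0.93 ± 0.15 in tip (adjusted p = 0.000364) and by 1.12 ± 0.16 in stalk (adjusted p = 0.000141), with no overlap of arrays. Slc39a6 (ZIP6), which in zebrafish is needed for cell movement in the gastrula, was at −0.49, −0.25 and 0.02 in tip and at −0.64, −0.83, −0.19 and −0.28 in stalk, against 0.81, 0.62 and 0.40 in nonvascular retina. Slc39a6 fell by 0.83 ± 0.15 in tip (adjusted p = 0.0011) and by 1.09 ± 0.17 in stalk (adjusted p = 0.000215), likewise without overlap. Ganglion cell markers were also lower in both vascular groups, and their part in these 2 differences was not tested.

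The other 5 importers, Slc39a4, Slc39a5, Slc39a10, Slc39a11 and Slc39a12, were called in no comparison, and their differences lay between −0.16 and 0.20. Family medians were 0.07 for tip minus stalk, 0.06 for tip minus nonvascular and 0.08 for stalk minus nonvascular, where 5 rose and 2 fell in tip and 3 rose and 2 fell in stalk.

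None of the 8 Slc30 zinc exporters was called between tip and stalk by limma. Slc30a1 encodes ZnT1, the exporter at the cell surface and a textbook target of the zinc-sensing factor MTF1. It lay at −0.64, −0.26 and −0.07 (lowest, median, highest) on tip arrays, at −0.02, 0.10 and 0.23 on 3 stalk arrays and at −0.86, −0.85 and −1.01 on nonvascular arrays. The spot of stalk replicate 4 was marked as an outlier by the scanner software and left out. The groups did not overlap, with stalk highest and nonvascular retina lowest, as for Slc39a8. Tip minus stalk was −0.39 ± 0.11 and missed the call (adjusted p = 0.0868), while Slc30a1 exceeded nonvascular retina by 0.61 ± 0.11 in tip (adjusted p = 0.00114) and by 1.01 ± 0.13 in stalk (adjusted p = 7.27e-05). From the scanner software's own log ratios these 2 differences were 1.17 and 1.86.

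Slc30a7, an exporter into the Golgi, rose in tip relative to nonvascular retina (0.45 ± 0.11, adjusted p = 0.00926), a call lost without nonvascular replicate 2 (0.0565), with the scanner software's log ratios (0.091) and in the red channel alone (0.413). Slc30a9 lay at −1.89, −1.53 and −1.24 (lowest, median, highest) in tip and at −2.02, −1.74, −2.02 and −1.99 in stalk, against −1.04, −1.28 and −1.53 in nonvascular retina. It fell in stalk relative to nonvascular retina by 0.66 ± 0.16 (adjusted p = 0.00612), but a dimmer Slc30a9 probe, well above background on 1 of 4 stalk arrays, gave 0.06, and brightness as a covariate ended the call (0.0949). For tip minus nonvascular its probes gave −0.27 and 0.11. The exporters Slc30a3, Slc30a4, Slc30a5, Slc30a6 and Slc30a8 were called in no comparison, with differences between −0.25 and 0.39. The largest, Slc30a4 in tip relative to stalk, missed the call (adjusted p = 0.082). It was called once stalk replicate 3 was left out (0.51, adjusted p = 0.0167), and Slc30a4 then fell in stalk relative to nonvascular retina (−0.37, 0.0153). Slc30a6 was called lower in stalk than in nonvascular retina without tip replicate 6 (−0.17, 0.0431) or stalk replicate 4 (−0.22, 0.0273), and Slc30a8 lower in tip without tip replicate 4 (−0.18, 0.0185).

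Among the 4 metallothioneins, 1 rose in tip relative to stalk and none fell. Mt1 and Mt2 are the widely expressed, metal-inducible forms, Mt3 is the form known from brain and Mt4 the one known from stratified epithelium. Mt2 ran from −2.57 through −2.13 to −1.72 on tip arrays, was at −2.94, −2.71, −3.29 and −3.25 on stalk arrays and at −3.12, −3.34 and −2.91 on nonvascular arrays. All 6 tip arrays exceeded all others, while stalk and nonvascular arrays overlapped. Mt2 rose by 0.90 ± 0.16 in tip relative to stalk (adjusted p = 0.0123, 1.87-fold) and by 0.98 ± 0.18 relative to nonvascular retina (adjusted p = 0.00101). Against stalk the call was lost with median centring (0.71, adjusted p = 0.27), the red channel alone (0.75, 0.0567) and brightness as a covariate (0.73, 0.14), and against nonvascular retina with median centring (0.76, 0.0542).

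Mt1 showed the same order with a smaller gap. Its levels were −2.11, −1.55 and −1.35 (lowest, median, highest) in tip, −2.07, −1.98, −2.31 and −2.06 in stalk and −2.23, −2.53 and −2.13 in nonvascular retina. Only tip replicate 5, at −2.11, reached into the stalk range. Tip minus stalk was 0.51 ± 0.14 and missed the call (adjusted p = 0.0708), but without tip replicate 5 it was 0.61 (adjusted p = 0.00832). Mt1 rose in tip relative to nonvascular retina by 0.70 ± 0.15 (adjusted p = 0.00311), a call lost with median centring (0.46, 0.19).

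Mt3 and Mt4 lie beside Mt1 and Mt2 on mouse chromosome 8, and both had negative differences between tip and stalk, without a call. Mt3 gave −0.13 ± 0.10 (adjusted p = 0.532). It rose in stalk relative to nonvascular retina by 0.34 ± 0.12 (adjusted p = 0.045), where the arrays overlapped and 13 of 25 settings lost the call. Mt4 gave −0.25 ± 0.11 between tip and stalk (adjusted p = 0.253), but −1.27 with a call in the red channel alone (adjusted p = 0.0125). It exceeded nonvascular retina by 0.37 ± 0.12 in tip (adjusted p = 0.0358, lost in 11 of 25 settings) and by 0.61 ± 0.13 in stalk (adjusted p = 0.00251, and 0.0503 with brightness as a covariate), or by 1.73 in stalk in the red channel alone (adjusted p = 0.000294). A dimmer Mt4 probe, well above background on 2 of 4 stalk arrays, gave 0.02 in tip and 0.10 in stalk relative to nonvascular retina.

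The promoters of Mt2, Mt1 and Slc30a1 are shown because these genes are known targets of MTF1, which binds metal response elements. A further reason is that the differences of Mt2 and Slc30a1 between tip and stalk had opposite signs. The promoter of Mt3, which lies beside Mt1 and Mt2, is shown for comparison. The windows are RefSeq's (GRCm38.p6), run 5′ to 3′ on the gene's strand (plus for all 4) from 250 bases before the start to 50 after it, and capitals mark matches to the core letters TGCACNC or TGCGCNC on either strand. They lie at chr8:94172368-94172667 (Mt2), chr8:94178839-94179138 (Mt1), chr8:94152357-94152656 (Mt3) and chr1:191906531-191906830 (Slc30a1).
Mt2: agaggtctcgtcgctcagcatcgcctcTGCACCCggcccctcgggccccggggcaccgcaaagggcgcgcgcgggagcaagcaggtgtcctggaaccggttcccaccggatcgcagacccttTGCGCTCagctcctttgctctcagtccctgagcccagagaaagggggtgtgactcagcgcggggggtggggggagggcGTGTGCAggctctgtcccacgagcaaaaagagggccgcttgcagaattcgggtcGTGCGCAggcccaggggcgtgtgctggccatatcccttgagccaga
Mt1: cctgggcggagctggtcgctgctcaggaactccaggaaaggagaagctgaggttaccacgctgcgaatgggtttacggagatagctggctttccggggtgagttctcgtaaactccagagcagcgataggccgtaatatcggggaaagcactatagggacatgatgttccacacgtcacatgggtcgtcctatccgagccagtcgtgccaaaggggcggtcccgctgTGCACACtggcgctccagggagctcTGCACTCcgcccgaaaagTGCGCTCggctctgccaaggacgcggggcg
Mt3: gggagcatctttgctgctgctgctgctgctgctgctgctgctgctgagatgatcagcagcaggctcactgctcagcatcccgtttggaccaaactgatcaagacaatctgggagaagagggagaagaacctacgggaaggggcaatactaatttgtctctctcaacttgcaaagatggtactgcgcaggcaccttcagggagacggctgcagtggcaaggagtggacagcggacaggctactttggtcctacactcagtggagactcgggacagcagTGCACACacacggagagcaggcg
Slc30a1: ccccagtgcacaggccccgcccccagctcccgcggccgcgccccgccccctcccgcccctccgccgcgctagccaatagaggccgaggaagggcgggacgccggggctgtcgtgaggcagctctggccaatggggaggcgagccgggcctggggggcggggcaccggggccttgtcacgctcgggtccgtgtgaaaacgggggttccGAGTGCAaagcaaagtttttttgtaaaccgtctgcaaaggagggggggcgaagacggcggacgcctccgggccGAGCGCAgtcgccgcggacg
The Mt2 window held 4 matches, Mt1 3, Slc30a1 2 and Mt3 1. Of 32851 RefSeq promoter windows of 300 bases, 25.7% held at least 1 match, 7.11% at least 2, 1.97% at least 3 and 0.517% at least 4. RefSeq windows were found for 33 of the 42 genes, 46 windows in all, of which 19 held at least 1 match, 6 at least 2 and 3 at least 3. A match describes letters and does not show binding.

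None of the 7 iron uptake genes was called between tip and stalk, and their differences lay between −0.05 and 0.19. Tfrc encodes the transferrin receptor, whose mRNA is stabilised when cells are short of iron. It lay at −2.27, −2.13 and −1.96 (lowest, median, highest) in tip and at −2.21, −2.28, −2.31 and −2.32 in stalk, against −1.57, −1.66 and −1.90 in nonvascular retina. Both vascular groups were below all nonvascular arrays. Tfrc fell by 0.42 ± 0.09 in tip (adjusted p = 0.00303) and by 0.57 ± 0.10 in stalk (adjusted p = 0.000509), and from the scanner software's log ratios by 0.88 and 1.14.

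Slc11a2 encodes DMT1, which carries iron out of endosomes. Its levels were −0.82, −0.54 and −0.12 (lowest, median, highest) in tip and −0.30, −0.36, −0.44 and −0.96 in stalk, against −1.21, −1.10 and −1.29 in nonvascular retina, with no overlap between vascular and nonvascular arrays. Slc11a2 rose by 0.71 ± 0.18 in tip (adjusted p = 0.00875) and by 0.69 ± 0.19 in stalk (adjusted p = 0.0154). Its other probe, well above background on all 13 arrays, gave −0.05 and 0.05, and which transcript forms each probe reads was not tested. Median centring ended both calls (adjusted p = 0.0507 and 0.0756), as did the red channel alone (0.0764 and 0.0562), and brightness as a covariate ended that in stalk (0.39, 0.247), as did leaving out nonvascular replicate 3 (0.64, 0.0525).

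Slc11a1 encodes NRAMP1, a metal carrier of macrophage phagosomes. It stood at −1.51, −1.45 and −1.07 (lowest, median, highest) in tip and at −1.54, −1.60, −1.58 and −1.33 in stalk, against −0.97, −0.27 and −1.44 in nonvascular retina, and the groups overlapped. It fell in stalk relative to nonvascular retina by 0.62 ± 0.21 (adjusted p = 0.0373), or by 0.31 without nonvascular replicate 2 (adjusted p = 0.164), and lost the call in 8 of 25 settings. In tip it was called lower without nonvascular replicate 3 (−0.77, adjusted p = 0.00373), against −0.50 with all arrays (0.0735). Microglia and macrophage markers averaged −0.45 to −0.10 on tip arrays, −0.26 to −0.07 on stalk arrays and 0.18 to 0.52 on nonvascular arrays, highest on nonvascular replicate 2, as Slc11a1 was. Of 9 tested, 6 fell in tip and 4 in stalk relative to nonvascular retina, and their part in the Slc11a1 values was not tested.

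Trf, transferrin itself, ran from 0.02 through 0.15 to 0.44 in tip, was at 0.00, −0.03, −0.17 and 0.26 in stalk and at −0.09, −0.02 and 0.11 in nonvascular retina. These groups overlapped, and Trf was called in no comparison (differences 0.02 to 0.21). The Steap1, Steap3 and Steap4 metalloreductase genes were not called either, with differences between −0.05 and 0.13.

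Iron storage, export and heme breakdown held 7 genes, of which only Slc40a1 was called between tip and stalk. Slc40a1 encodes ferroportin, the iron exporter at the cell surface. Its levels were 0.58, 0.70 and 1.14 (lowest, median, highest) in tip, 2.16, 1.88, 2.49 and 1.95 in stalk and 0.57, 1.01 and −0.05 in nonvascular retina. Stalk arrays stood above all others, and tip and nonvascular arrays overlapped. Slc40a1 fell by 1.36 ± 0.18 in tip relative to stalk (adjusted p = 0.002, 2.57-fold) and exceeded nonvascular retina by 1.61 ± 0.22 in stalk (adjusted p = 8.09e-05, 3.06-fold). Tip minus nonvascular was 0.25 ± 0.20 (adjusted p = 0.414). Both calls were kept in all 25 settings, with tip minus stalk between −1.56 and −1.16. Between tip and stalk 7 of 9 pericyte and 2 of 10 endothelial markers fell, as Slc40a1 did. Relative to nonvascular retina 7 of the 9 and 9 of the 10 rose in tip, where Slc40a1 was not called. The part of these markers in the Slc40a1 values was not tested.

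Cp and Heph encode ceruloplasmin and hephaestin, copper-containing ferroxidases that act with ferroportin. Cp lay at −1.64, −1.17 and −0.82 (lowest, median, highest) in tip and at −0.97, −0.84, −0.88 and −0.59 in stalk, against −2.57, −2.84 and −2.21 in nonvascular retina. It rose by 1.37 ± 0.17 in tip (adjusted p = 5.11e-05, 2.59-fold) and by 1.72 ± 0.19 in stalk (adjusted p = 1.32e-05, 3.30-fold), with no overlap, while tip minus stalk was −0.35 ± 0.16 (adjusted p = 0.264). Both calls against nonvascular retina were kept in all 25 settings. The mean levels of astrocyte and Mueller markers were also higher in both vascular groups, and their part in the Cp differences was not tested.

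Heph ran from 1.78 through 2.09 to 2.82 in tip and was at 1.77, 1.27, 1.97 and 2.28 in stalk and at 1.12, 0.61 and 1.64 in nonvascular retina. It rose in tip relative to nonvascular retina by 1.03 ± 0.27 (adjusted p = 0.0128), but without nonvascular replicate 2 this was 0.77 (adjusted p = 0.0889). Stalk minus nonvascular was 0.70 ± 0.30 (adjusted p = 0.101) with overlapping arrays, and it was called without stalk replicate 2 (0.88, 0.0423) or nonvascular replicate 3 (0.95, 0.0381). The dimmer Heph probe gave only 0.15 in tip and 0.23 in stalk relative to nonvascular retina. For tip minus stalk the brighter Heph probe gave 0.33 and the dimmer −0.08, and neither comparison of ferroxidases between tip and stalk was called.

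Ftl1 encodes the ferritin light chain. Its levels were −2.86, −2.55 and −2.12 (lowest, median, highest) in tip and −2.87, −2.64, −2.99 and −2.72 in stalk, against −1.32, −1.69 and −2.04 in nonvascular retina. Vascular arrays lay below all nonvascular arrays. Ftl1 fell by 0.85 ± 0.16 in tip (adjusted p = 0.0015) and by 1.12 ± 0.18 in stalk (adjusted p = 0.000316), or by 0.69 in stalk in the red channel alone. A probe that the files label as ferritin light chain 2 was kept apart and showed −1.02 in tip and −1.71 in stalk relative to nonvascular retina. For tip minus stalk that probe gave 0.69, while Ftl1 gave 0.27 ± 0.15 without a call (adjusted p = 0.383). The ferritin heavy chain gene Fth1 ran from −2.71 through −1.93 to −1.62 in tip, was at −2.14, −1.89, −2.06 and −1.96 in stalk and at −1.91, −1.33 and −2.20 in nonvascular retina, with overlap throughout and no call (differences −0.20 to 0.03). Its red signal was saturated on 2 arrays. Ferritin genes have near-identical copies that probes may not separate, so these values are uncertain.

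Hmox1 encodes heme oxygenase 1, the inducible enzyme that frees iron from heme. It lay at −0.73, −0.71 and −0.32 (lowest, median, highest) on 5 tip arrays, tip replicate 3 being left out as a scanner outlier, at −0.93, −1.25, −0.91 and −0.39 on stalk arrays and at 0.18, 0.66 and −1.68 on nonvascular arrays. Nonvascular replicate 3 was thus the lowest of all arrays and the other 2 nonvascular arrays the highest. No comparison was called (tip minus nonvascular −0.30 ± 0.41, adjusted p = 0.666). Without nonvascular replicate 3, Hmox1 fell by 0.99 in tip (adjusted p = 0.00471) and by 1.29 in stalk (adjusted p = 0.001) relative to the remaining 2. The same array was highest among the nonvascular arrays in astrocyte and Mueller markers and for Slc39a1, and lowest for Slc40a1, and its part in these values beyond leaving it out was not tested. Hmox2, the constitutive enzyme, differed by −0.18 to −0.03 with no call.

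None of the 4 copper carriers and pumps was called between tip and stalk by limma, with differences from −0.21 to 0.25, but 3 of them rose in both vascular groups relative to nonvascular retina. Slc31a1 encodes CTR1, the copper importer at the cell surface. It stood at 0.00, 0.23 and 0.33 (lowest, median, highest) in tip and at 0.20, 0.35, 0.73 and 0.36 in stalk, against −1.06, −1.34 and −0.97 in nonvascular retina. No vascular array came near a nonvascular one. Slc31a1 rose by 1.32 ± 0.12 in tip (adjusted p = 2.17e-06, 2.49-fold) and by 1.53 ± 0.13 in stalk (adjusted p = 1.12e-06, 2.89-fold). Its dimmer probe, well above background on all 13 arrays, gave only 0.14 and 0.10, so that the mean of both probes differed by 0.73 and 0.82. Between tip and stalk the probes gave −0.21 and 0.04.

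Slc31a2, which encodes the related copper transporter CTR2, lay at 0.55, 1.00 and 1.18 (lowest, median, highest) in tip and at 0.88, 0.96, 0.79 and 1.10 in stalk, against −0.20, −0.17 and 0.07 in nonvascular retina. It rose by 1.03 ± 0.13 in tip (adjusted p = 4.09e-05) and by 1.04 ± 0.14 in stalk (adjusted p = 6.86e-05), and here the dimmer probe gave 0.62 and 0.71.

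Atp7a encodes a copper pump of the secretory pathway that also exports copper. Its levels were −0.86, −0.37 and −0.18 (lowest, median, highest) in tip and −0.58, −0.74, −0.16 and −0.38 in stalk, against −1.39, −1.26 and −0.98 in nonvascular retina, with no overlap. It rose by 0.75 ± 0.16 in tip (adjusted p = 0.00305) and by 0.75 ± 0.17 in stalk (adjusted p = 0.005), and median centring ended both calls (0.0642 and 0.0873). Atp7b, its relative known from liver, showed the reverse. It was at −0.10, −0.07 and 0.01 on 5 tip arrays (tip replicate 3 left out as a scanner outlier), at −0.40, −0.19, −0.39 and −0.21 on stalk arrays and at −0.04, 0.13 and 0.06 on nonvascular arrays. Atp7b fell in stalk relative to nonvascular retina by 0.35 ± 0.07 (adjusted p = 0.00204, and 0.614 in the red channel alone). Tip minus stalk was 0.25 ± 0.06 with arrays that did not overlap, and it just missed the call (adjusted p = 0.0549). With the outlier spots kept, an alternative chosen after seeing the data, it was 0.27 (adjusted p = 0.0347). Planned settings that called it were those without tip replicate 6 (0.26, 0.0493), stalk replicate 2 (0.28, 0.0478) or background subtraction (0.25, 0.05 after rounding). Of 25 settings 4 called it and 21 did not.

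**Figure D3:**
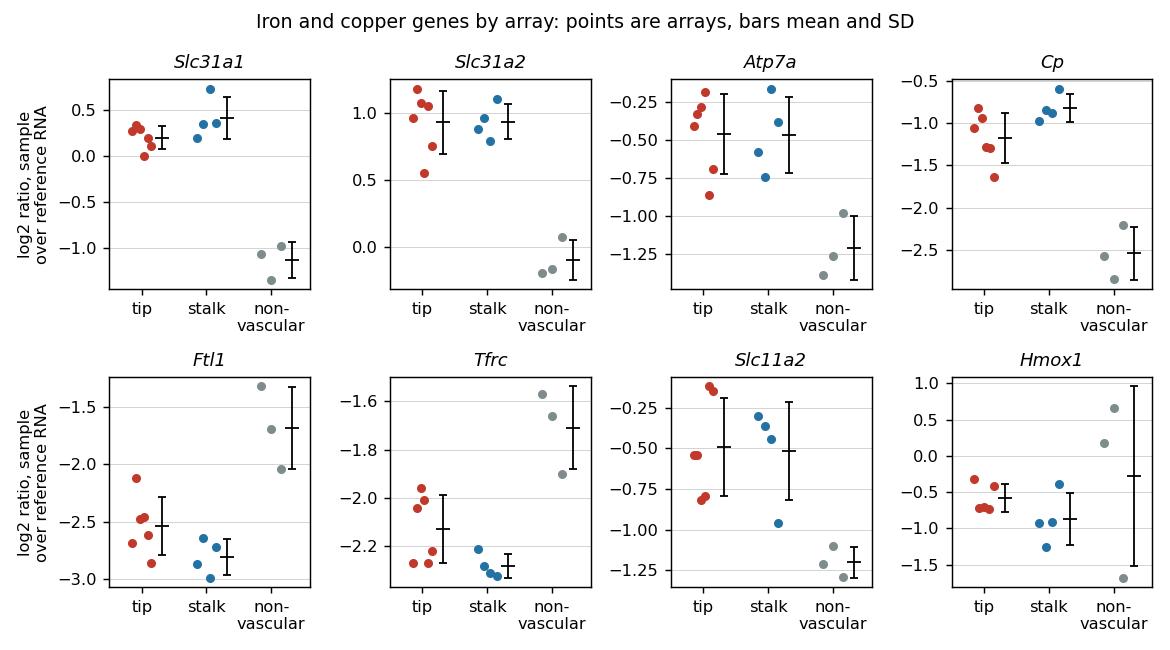
Log2 ratio of sample over reference RNA (vertical axis, scaled per gene) on each tip (n = 6), stalk (n = 4) and nonvascular (n = 3) array for 8 iron and copper genes. Points are arrays, and bars are group means with the SD. Slc31a1, Slc31a2, Atp7a, Cp and Slc11a2 lie higher on tip and stalk arrays than on nonvascular arrays, Ftl1 and Tfrc lie lower, and the nonvascular arrays of Hmox1 spread from −1.68 to 0.66.

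Of the 42 genes 12 had 2 probes, and the brighter stood for the gene. The differences of the 2 probes had the same sign in 9 of 12 genes for tip minus stalk, 8 for tip minus nonvascular and 10 for stalk minus nonvascular. The dimmer probe mostly lay near 0. Probes of Heph, Slc11a2 and Slc31a1 differed in sign for tip minus stalk, and those of Slc11a2, Slc30a9, Slc39a13 and Steap4 for tip minus nonvascular. For stalk minus nonvascular those of Slc30a9 and Steap4 did, the values of Steap4 in these 2 comparisons lying between −0.03 and 0.02.

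**Figure D4:**
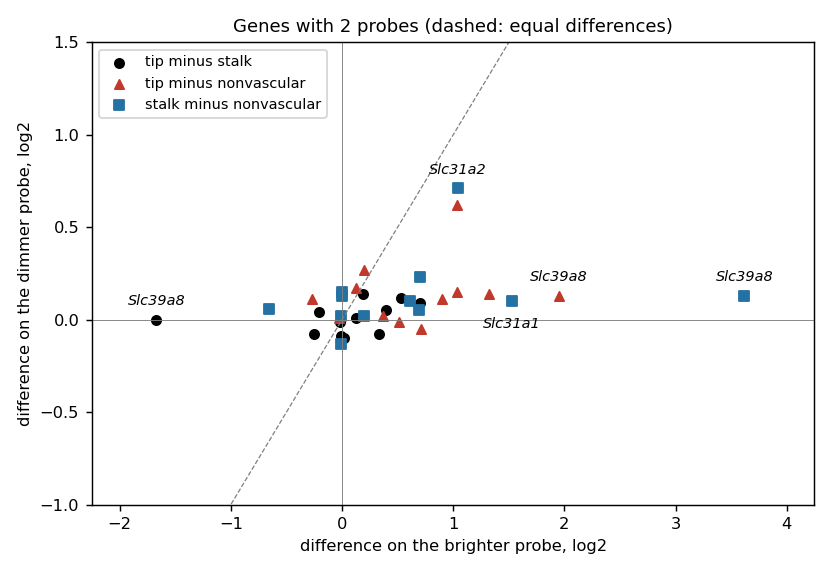
Difference of group mean log2 ratios on the dimmer probe (vertical) against the brighter probe (horizontal) of the 12 genes with 2 probes, for 3 comparisons. The dashed line marks equal differences. Slc31a2 lies nearest to it among the large differences (1.04 and 0.71), while the dimmer probes of Slc39a8 and Slc31a1 lie between 0 and 0.14.

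Other genes of metal handling were taken as 5 lists of 74 genes, of which 67 were tested. Between tip and stalk, 0 of 14 iron regulators, 0 of 10 genes for other iron uptake and iron chaperones and 0 of 9 zinc sensing genes were called by limma. Heme and mitochondrial iron genes had 4 of 18 lower in tip and 0 higher, with a median of −0.04, where 1.32% of all genes were called lower. The largest was Flvcr2, which encodes a choline and heme-binding transporter of vessel endothelium. It lay at 0.01, 0.40 and 0.82 (lowest, median, highest) in tip, at 2.45, 2.53, 2.75 and 2.91 in stalk and at −0.07, 0.08 and 0.01 in nonvascular retina. Tip and stalk did not overlap, and Flvcr2 fell by 2.27 ± 0.15 in tip (adjusted p = 7.62e-06). Blvrb, a biliverdin reductase acting after heme oxygenase, fell by 0.68 ± 0.12 (adjusted p = 0.0111, and 0.122 with brightness as a covariate). Alas1, the first enzyme of heme synthesis, fell by 0.48 ± 0.09 (adjusted p = 0.0117). Abcg2, an efflux pump of barrier endothelium that can carry heme precursors, fell by 0.86 ± 0.16 (adjusted p = 0.0125) and was named after its values were seen. With the mean of their probes Alas1 (−0.30, adjusted p = 0.17) and Abcg2 (−0.40, 0.0562) lost the call, as they did with median centring (−0.50, 0.228 and −0.89, 0.132). Between tip and stalk 7 of 9 pericyte and 2 of 10 endothelial markers fell as well, and their part in the differences of these 4 genes was not tested.

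Among 16 copper chaperones and copper enzymes 1 fell in tip relative to stalk and none rose. This was Aoc3, a copper amine oxidase known from vessel walls, at 0.37, 0.53 and 0.90 (lowest, median, highest) in tip, 1.88, 1.57, 1.16 and 1.65 in stalk and −0.14, 0.03 and −0.24 in nonvascular retina. Aoc3 fell by 1.00 ± 0.13 (adjusted p = 0.00176), or by 1.69 from the scanner software's log ratios, and the groups did not overlap. Its order of groups, stalk above tip above nonvascular retina, was that of the mean levels of both pericyte and endothelial markers. The part of these markers was not tested.

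Relative to nonvascular retina 28% of all genes were called in tip and 29.9% in stalk, and the counts of these 5 lists are to be read beside these shares. Of the copper list 5 rose and 1 fell in tip, and 7 rose and 1 fell in stalk, with Loxl1 and Loxl2, which crosslink collagen and elastin, and the chaperone gene Atox1 among those higher in both. Atox1 rose by 0.70 ± 0.17 in tip (adjusted p = 0.00662, and 0.0781 with median centring) and by 1.29 ± 0.18 in stalk (adjusted p = 0.000111). Heme and mitochondrial iron genes had 6 higher and 2 lower in tip and 8 higher and 2 lower in stalk. Erythroid markers averaged 1.62 to 2.36 on tip arrays, 1.72 to 2.14 on stalk arrays and 1.02 to 1.34 on nonvascular arrays, and of 5 tested 2 rose in tip and 2 in stalk relative to nonvascular retina. The part of these markers in the heme gene differences was not tested. The iron-sulfur protein gene Cisd1 of the outer mitochondrial membrane fell in both, by 1.01 ± 0.09 in tip (adjusted p = 2.99e-06) and by 1.34 ± 0.10 in stalk (adjusted p = 5.22e-07).

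Iron regulators had 2 higher and 3 lower in tip and 3 higher and 2 lower in stalk. Tfr2, an iron sensor known from liver, had the largest of these differences. It stood at −0.08, 0.25 and 0.32 (lowest, median, highest) in tip and at −0.51, 0.53, −0.65 and −0.08 in stalk, against 2.03, 2.17 and 2.18 in nonvascular retina. Tfr2 fell by 1.95 ± 0.20 in tip (adjusted p = 1.01e-05) and by 2.30 ± 0.22 in stalk (adjusted p = 4.53e-06), with no overlap. Nfe2l2, the factor NRF2 that drives ferritin and heme oxygenase genes, rose by 0.92 ± 0.16 in tip (adjusted p = 0.000782) and by 1.01 ± 0.18 in stalk (adjusted p = 0.000636). Ftl1 was lower in both and Hmox1 was not called with all arrays. Any link of these 2 genes to Nfe2l2 was not tested. The other iron uptake list had 1 higher (Hp) and 1 lower (Glrx3) in tip and 0 higher and 1 lower (Glrx3) in stalk. The zinc sensing list had 1 higher in tip (S100b) and 2 in stalk (S100b and Ace) with none lower. Ace rose in stalk by 0.21 ± 0.07 (adjusted p = 0.0483), where the arrays overlapped and 17 of 25 settings lost the call. S100b was at 1.89, 2.22 and 4.45 on nonvascular arrays, the last within the tip range of 4.31 to 5.29. S100b was also among the astrocyte markers used above.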

How the data were processed

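Tip (n = 6), stalk (n = 4) and nonvascular (n = 3) samples were measured on 13 Agilent arrays of 43790 spots. The deposited scanner files hold mean intensity and local background per spot and channel, made with Agilent Feature Extraction 8.5.1.1 per the file headers and not normalized. The same deposited files hold a log10 ratio of processed red over green, and the deposited table holds linear ratios, which equalled its antilog for at least 99.94% of probes on each array within 0.001 (log10). Here, intensities were background-corrected (normexp, offset 50) and loess-normalized in limma 3.58.1 (R 4.3.3, package data.table, version 1.17.8). Control spots were left out and outlier spots set to missing. Probes were named through RefSeq (GRCm38.p6), with 17643 of 41174 left unnamed. The brightest probe stood for a gene, and it had to be well above background in red on at least 3 arrays. One model of 3 group means was fitted to all 31896 genes with limma's moderated test, adjusted by Benjamini-Hochberg within each comparison, so the groups share an estimate of spread. The number of arrays limits the precision, and 85% to 95.4% of each array's spots exceeded background clearly.

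The 42 genes, the lists, the naming rule and the alternatives were chosen with earlier results of these data known. The rule gave in full the genes called between tip and stalk, the 8 largest called differences per direction against nonvascular retina and 16 fixed genes. It also named the genes whose probes disagreed in sign. Up to 3 called genes per list and comparison were to be added, but not all of these are named or given with values here. Only the fit and its test were run on simulated log2 ratios, drawn with independent noise of the spread seen here. Background correction, normalization, probe naming and the filter were not simulated. Alternatives were leaving out each array, the replicate number as a block, the background, the normalization, the signals, the channel, the probe rule, the filter, the groups in the fit and array brightness as a covariate. Same-numbered samples of different groups did not deviate together (r between −0.14 and 0.08 over 10 pairs), so numbers were not taken as pairs.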

Additional observations from a re-analysis of the deposited data

Results flagged for a closer look

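In each group of 4 or 6 arrays, the highest and lowest array of every gene was set against the others with Dixon's test, in 84 groups. Of these 7 held an array far from the rest, and chance alone gives about 1 in 20 groups. Tip replicate 6 was such an array for 3 genes: Slc39a14 at −0.43 (other tip arrays 0.21 to 0.40), Slc40a1 at 1.14 (0.58 to 0.75) and Slc30a5 at −1.92 (−1.41 to −1.12). For Slc39a14 and Slc40a1 the value lay toward the stalk arrays. Stalk replicate 3 stood high for Slc30a8 at 0.27 (other stalk arrays 0.22 to 0.23) and for Slc39a12 at 0.29 (0.13 on each of the others). Stalk replicate 2 was at −1.74 for Slc30a9 (−2.02 to −1.99), and tip replicate 1 was at 0.01 for Steap4 (0.18 to 0.25). Groups of 3 arrays, which nonvascular retina has, were not examined in this way.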

How the results depend on the processing

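The number of the 42 genes that fell in tip relative to stalk was 2 in 24 of 25 alternatives and 3 in the red channel alone, where Mt4 was added. The number that rose was 0 with median centring in place of loess, 0 in the red channel alone, 0 with array brightness as a covariate and 1 to 4 with 1 array left out, against 3. Relative to nonvascular retina 10 rose in tip with median centring, against 16, and 13 to 16 with 1 array left out. The other counts stayed within 1.5 times. Over all genes, 251 were called between tip and stalk with median centring, 224 with brightness as a covariate and 444 to 1594 with 1 array left out, against 887. Among differences called in at least 1 setting, signs turned in 5: Trf in stalk minus nonvascular (0.02, and −0.09 with median centring, −0.06 to 0.08 with 1 array left out), Hmox1 in tip minus nonvascular (−0.99 to 0.17 with 1 array left out), Slc30a8 in tip minus nonvascular (−0.15, and 0.04 in the red channel alone), Steap3 in stalk minus nonvascular (0.11, and −0.06 with median centring and −0.04 in the red channel alone) and the zinc enzyme gene Ace in tip minus nonvascular (0.11, and 0.00 with median centring). Another 75 differences of named genes were called in no setting, and their sign changed in 164 of 1872 values. Scaling moved the median of all genes by at most 0.08. With the replicate number as a block, 672 genes were called between tip and stalk. Of the genes described above, Slc39a13 (0.60, adjusted p = 0.0559) and Blvrb (0.0665) lost their calls there, and Mt1 (0.58, 0.0497) and Cisd1 (0.32, 0.05) gained one. Relative to nonvascular retina, Tfrc (−0.36, 0.0561), Mt4 (0.28, 0.20), Atox1 (0.0823), Glrx3 (−0.39, 0.183) and S100b (0.0514) lost theirs in tip with this block. In stalk Slc11a1 (0.101), Mt3 (0.0792) and Ace (0.109) lost theirs, and Slc30a6 (−0.20, 0.0488) gained one. A slide block was not run, since each of 13 slides held 1 array. The offset of normexp shrinks ratios of dim probes, and the scanner software's log ratios gave larger differences for Slc39a8 (2.99 in tip minus nonvascular) and Loxl2 (3.04, against 1.19).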
